A study of Caenorhabditis elegans with 6 samples.

Results

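The F-box A genes of C. elegans were chosen by name, as every gene whose symbol in the WBcel235 annotation is fbxa- followed by a number. The annotation holds 170 such genes, all of them protein-coding, among the 19999 genes of the deposited transcript tables. They are encoded by 222 transcripts, and 122 of the genes have a single transcript. RNA was sequenced from whole L4 larvae, the last larval stage, in 3 wild-type and 3 ddi-1(icb156) samples, which the labels call biological replicates. Both groups were grown from bleached embryos on E. coli OP50 at 20°C.

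The icb156 allele is a non-synonymous change recovered after EMS mutagenesis and is represented by 1 strain. That strain also carries the icbIs4 transgene on chromosome II, which drives GFP from the chil-27 promoter and mCherry from the col-12 promoter. The sources used here do not say whether the wild-type samples carried the transgene, or what other EMS-induced changes the mutant strain holds. The comparison asks which genes change when DDI-1, the aspartic protease that activates the transcription factor SKN-1A of the proteasome surveillance pathway, is mutated.

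F-box proteins are the substrate-binding subunits of SCF ubiquitin ligases, in which a cullin scaffold holds a RING protein at one end and a Skp1-related adaptor (SKR in C. elegans) at the other. The F-box binds the adaptor, and a second domain of the F-box protein binds the target to be ubiquitylated. In the F-box A proteins the second domain is usually an FTH domain, and the family is known for its large expansion by local gene duplication in nematodes. FBXA-75 and FBXA-158 are known partners of a ligase built on CUL-6, which acts in the intracellular pathogen response (IPR), a transcriptional response of the worm to microsporidia and viruses.

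The libraries held 28962104 to 47142002 estimated counts, and the deepest 3 were the wild-type ones. Of all genes, 15409 had enough counts to be tested with edgeR's quasi-likelihood test, and a gene was called at a p below 0.01 and a Benjamini-Hochberg adjusted p below 0.1. On the first principal component of all genes, which held 78.5% of the variance, wild-type replicate 2 (-17.2) lay apart from replicates 1 and 3 (-77.3 and -74.9) on the side of the mutants (50.6 to 62.8). Genes of yolk, sperm and oocytes, which are switched on as hermaphrodites mature, moved with that axis. The 6 yolk genes all fell in the mutants, with summed levels of 5293, 2754 and 5709 CPM (counts scaled to a common library size) in wild type and 302 to 536 CPM in ddi-1(icb156), and 27 of 29 sperm and 11 of 12 oocyte and eggshell genes tested fell too. The part of this difference in the F-box A results was not tested. Results are also given without wild-type replicate 2. Leaving it out keeps the wild-type libraries that lie farthest from the mutants on this axis. In that fit 3084 in place of 1535 of all genes were called higher, so it does not take the difference away. The mutated gene itself, ddi-1 (chromosome IV, 6522867 to 6524571), was at 49.2 ± 1.03 CPM in wild type and 35.3 ± 0.241 CPM in the mutants (SD, n = 3), a log2 fold change of -0.48 with an edgeR adjusted p of 0.00307. As the allele changes the protein, this level does not check the labels.

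Of the 170 F-box A genes, 128 passed the filter on low counts and were tested. In ddi-1(icb156), 38 of them were raised, which is 29.7% of those tested, where 9.96% of all 15409 genes were called higher. The lowered genes numbered 6, or 4.69%, where 13.4% of all genes were called lower. The remaining 84 were not called. Among these, 37 were flat, which here means that the 95% interval of the log2 fold change lay within 1 on either side of 0 (a 2-fold change), and 47 were unresolved because their interval reached further. The log2 fold changes of the tested F-box A genes had a median of 0.56 (quartiles 0.08 and 1.04), and 99 of 128 were above 0. Over all genes the median was 0.01 (quartiles -0.26 and 0.35), and 50.5% were above 0.

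**Figure D1:**
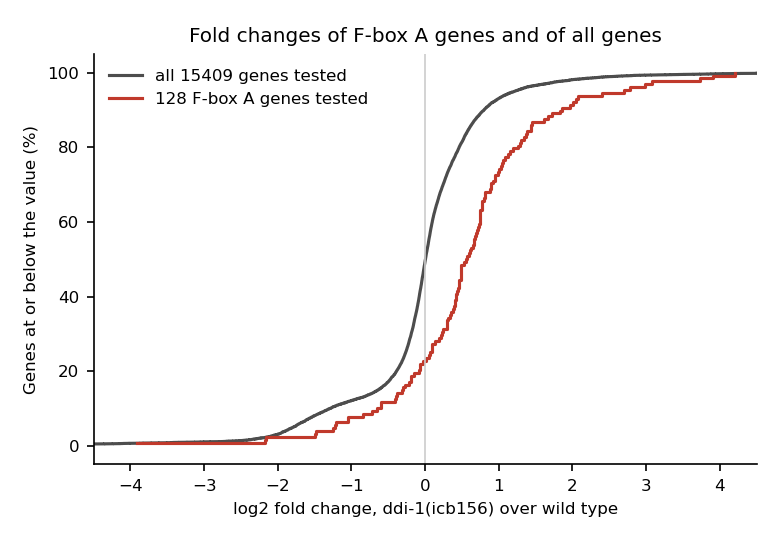
Cumulative share of genes (vertical axis, %) by log2 fold change of ddi-1(icb156) over wild type (horizontal axis), for the 128 F-box A genes tested (red) and all 15409 genes tested (grey). The red line lies to the right of the grey one over most of its range, with medians of 0.56 and 0.01.

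The shift was seen sample by sample. The median over the tested members of log2 CPM minus the wild-type mean was -0.00087, -0.0089 and 0.044 in the wild-type samples, by replicate number, and 0.56, 0.57 and 0.44 in the ddi-1(icb156) samples. The groups did not overlap. The wild-type values lie near 0 by construction, since they are taken from the mean of those same samples. Some of the tested members passed the filter on low counts through the mutant libraries. Among members that passed it in both groups the median log2 fold change was 0.47. Over the raised members alone the medians of the deviation were -0.089, 0.081 and 0.032 in wild type, with replicate 2 the highest. They were 1.31, 1.26 and 1.17 in the mutants. The raised members were chosen by their call in these same libraries, so this separation follows from the choice. Levels were also compared per length, as TPM, each transcript's estimated count over its effective length, scaled to the same total in every library. The TPM of all 170 genes summed to 396, 437 and 400 in the wild-type samples and to 529, 570 and 492 in the mutants, and wild-type replicate 2 was the nearest of its group to the mutants. Without fbxa-182, the member that changed most, the sums were 394, 435 and 399 TPM against 508, 546 and 470 TPM, so that the groups stayed apart.

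Every mutant sample lay above every wild-type sample for 73 of the 128 tested members, where this held for 23.4% of all genes tested. The opposite order was found for 14 members, where it held for 23.5% of all genes. The filter shapes these counts at low levels. Its minimum of 0.26 CPM was reached in all 6 libraries by 102 members. It was reached in all 3 mutant libraries but not in all 3 wild-type ones by 20 members, 6 of which reached it in no wild-type library, and in all 3 wild-type libraries but not in all 3 mutant ones by 4 members. Of the raised genes, 29 reached it in all 6 libraries and 9 only in part of the wild-type libraries (3 genes) or in none of them (6 genes). Of the lowered genes, 3 reached it in all 6 libraries, and the other 3 not in all mutant ones. A member that was tested only because of the group in which it is high had to differ, so these counts support no statement on the family as a whole. Of the 42 genes not tested, 8 had no counts in any library, which by counting error alone allows up to 3 counts each. Of the other 34, 25 had the higher mean in the mutants. Over all 42 the median was 12.5 counts in the 6 libraries together. With no filter, 162 members were tested, of which 39 were called higher and 8 lower.

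Whole-animal RNA does not tell more RNA per cell from more cells of a type that uses a gene. Another limit is shared sequence. kallisto divides a read that matches several transcripts between them, so a gene whose summed count is whole in each library (within 0.01) was taken to share no read with another gene. This held for 93 of the 128 tested members and for 27 of the 38 raised ones. The other 11 raised genes, fbxa-182 among them, have counts that are not whole. A symbol is shared by 2 gene IDs in 1 case, the untested fbxa-41 copies on the X chromosome, whose counts were equal in each library.

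fbxa-182, on chromosome II (2409633 to 2412749, minus strand), encodes a protein of 649 residues and rose most. It was at 2.74, 2.51 and 2.42 CPM in wild type, given by replicate number here and throughout, and at 44.7, 48.7 and 48.2 CPM in ddi-1(icb156). Each group was tight, and the 2 groups were far apart. The log2 fold change was 4.21 (SE 0.09), with an edgeR adjusted p of 1.43e-05. On the TPM scale the gene went from 1.19, the 74th level of the family, to 22.5, the second. Its share of the family's summed TPM was 0.273% to 0.318% in the wild-type samples and 3.93% to 4.55% in the mutants. Of its 2 transcripts, the longer received no count in wild type and 234, 140 and 46.7 estimated counts in the mutants, a minority of the gene's counts in each mutant library.

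fbxa-158, whose product is known as a CUL-6 partner, lies on chromosome II (1619814 to 1621280, minus strand) and encodes 393 residues. Its levels were 0.307, 0.276 and 0.432 CPM in wild type and 5.19, 5.15 and 5.04 CPM in the mutants, from 14, 11 and 17 counts and 155, 200 and 166 counts. The log2 fold change was 3.91 (SE 0.23), with an edgeR adjusted p of 0.000411, and the gene's counts were whole. The gene next to it, fbxa-166, rose as well, from 0.941, 0.952 and 0.839 CPM to 3.35, 3.81 and 4.37 CPM (log2 fold change 2.07, SE 0.19, edgeR adjusted p = 0.00171). Both rises were called in all 6 fits that left out 1 library.

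FBXA-75, the other F-box A protein known from the CUL-6 ligase, could not be followed at this depth. Its gene on chromosome III had 3, 4 and 4 counts in wild type and 5, 3 and 0 counts in ddi-1(icb156). The groups overlapped, and the gene fell below the filter.

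The other large rises were of genes with low levels in wild type. fbxa-135, on chromosome V, went from 0.394, 0.401 and 0.407 CPM to 3.22, 3.06 and 3.31 CPM, with a log2 fold change of 2.99 (SE 0.19) and an edgeR adjusted p of 0.000615. The 3 samples of each group lay close together. fbxa-188, also on V, went from 1.53, 1.83 and 1.88 CPM to 6.06, 7.29 and 7.19 CPM (log2 fold change 1.97, SE 0.17). fbxa-136, the longest F-box A protein of the annotation at 1881 residues, went from 0.394, 0.226 and 0.585 CPM to 2.55, 2.45 and 2.85 CPM (log2 fold change 2.69, SE 0.34). In each of these 3 genes all mutant samples lay above all wild-type samples, and all 6 leave-one-out fits called the rise.

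At lower counts, fbxa-44, fbxa-174, fbxa-47, fbxa-73 and fbxa-144 reached the minimum of the filter in no wild-type library and were tested only because their mutant libraries are high, so their fitted values and calls are given as a description. The same filter was met by fbxa-71 in 1 and by fbxa-136 in 2 wild-type libraries. fbxa-44 had 0, 3 and 2 counts in wild type and 14, 24 and 21 counts in the mutants, and its fitted log2 fold change of 3.73 had an SE of 0.65. fbxa-174 had 3, 1 and 6 counts against 21, 25 and 25 (log2 fold change 3.07, SE 0.50). fbxa-71 had 7, 17 and 7 counts against 43, 53 and 79 (2.78, SE 0.46). The size of these rises is uncertain, since the wild-type groups hold 5, 10 and 31 counts in all, while no library of one group reached those of the other. fbxa-47 had 3, 3 and 6 counts against 13, 26 and 15 (2.40, SE 0.44). fbxa-73 had 7, 2 and 6 counts against 17, 19 and 15 (2.04, SE 0.43), and was not called without ddi-1(icb156) replicate 1 (edgeR adjusted p = 0.0878). The least secure of the 12 largest rises was that of fbxa-144, whose exons overlap those of fbxa-142. It had 2, 8 and 3 counts against 13, 17 and 14 (2.01, SE 0.52, edgeR adjusted p = 0.0354). It was called in 1 of the 6 leave-one-out fits and not when the fit took the replicate number as a block (fitted value 2.05, edgeR adjusted p = 0.0497, which passes the second threshold but not that on p).

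**Figure D2:**
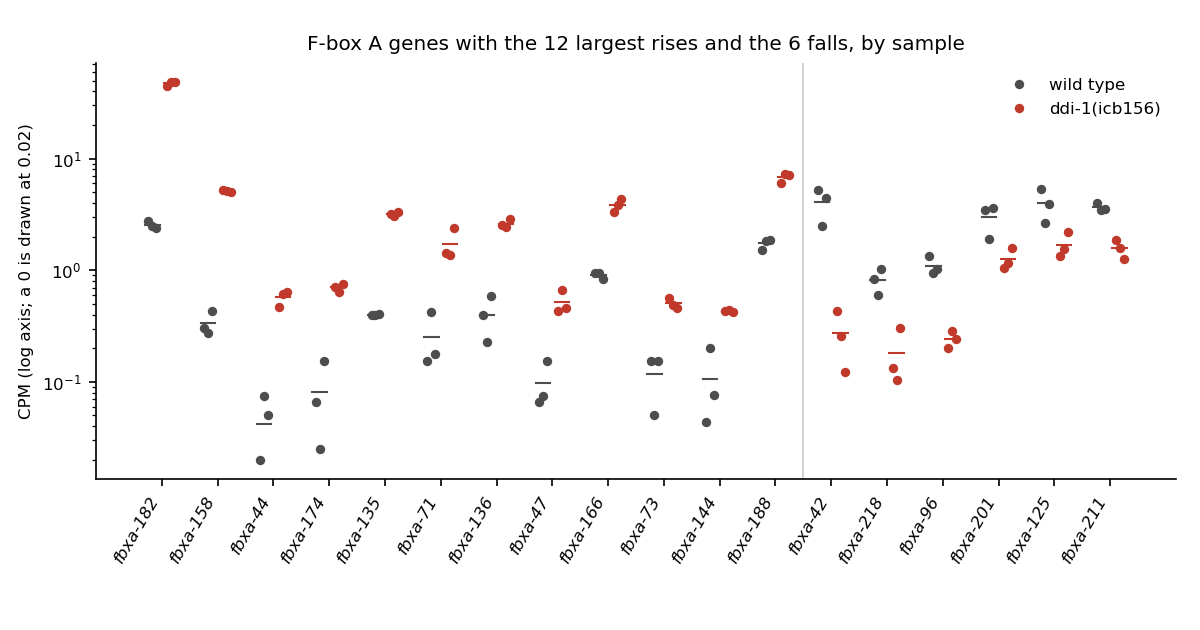
CPM of the 12 F-box A genes that rose most and of the 6 that fell (vertical axis, log scale, with a 0 drawn at 0.02), with 1 point per sample and a bar at the mean of each group of 3. In all 18 genes the wild-type points (grey) and the ddi-1(icb156) points (red) do not overlap, and fbxa-182 reaches 44.7 to 48.7 CPM in the mutants. The genes were chosen by their calls on these samples, which largely sets this separation.

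The 26 other raised genes had log2 fold changes from 0.48 to 1.86, wild-type means from 0.105 to 10.02 CPM and mutant means from 0.384 to 23.8 CPM. Over all 38, the median log2 fold change was 1.24. A total of 25 changed by more than 1 and 11 by more than 2. The groups did not overlap in any of the 38, which is largely set by calling them on these same samples. The most abundant raised gene was fbxa-67 on chromosome III, at 8.28, 12.3 and 8.54 CPM in wild type and 23.9, 26.9 and 20.7 CPM in the mutants (log2 fold change 1.29, SE 0.19, edgeR adjusted p = 0.00791). On the TPM scale it went from the 12th to the third level of the family. All 38 were also called by DESeq2. They were called without wild-type replicate 2 as well, a fit that calls 20.0% of all genes higher and so is a weak check. With the replicate block 32 were called (the others were fbxa-12, fbxa-38, fbxa-50, fbxa-82, fbxa-144 and fbxa-216). In all 6 leave-one-out fits 25 were called.

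The most abundant member was not called. This was fbxa-72 on chromosome V, with means of 50.5 TPM in wild type and 41.8 TPM in ddi-1(icb156). It was at 37.7, 77.7 and 31.4 CPM in wild type and 40.2, 43.7 and 35.4 CPM in the mutants, so that the groups overlapped and wild-type replicate 2 alone stood high. The gene was unresolved, with a 95% interval of -1.11 to 0.52. The median wild-type level was 1.72 TPM among raised genes, 3.83 TPM among flat genes, 3.02 TPM among lowered genes and 0.626 TPM among unresolved genes.

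**Figure D3:**
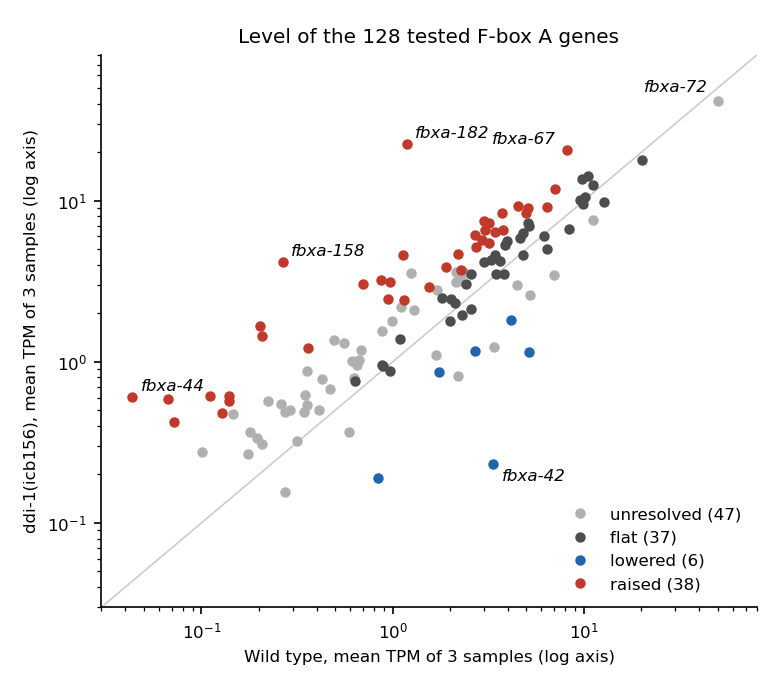
Mean TPM of the 128 tested F-box A genes in wild type (horizontal axis) and in ddi-1(icb156) (vertical axis), both on log scales, coloured by class, with a line at equal levels. Raised genes (red) span wild-type levels from 0.0435 to 8.16 TPM, while fbxa-72, at 50.5 and 41.8 TPM, lies near the line of equal levels.

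The 4 most abundant flat genes were fbxa-101, fbxa-107, fbxa-64 and fbxa-60. fbxa-101 was at 22.5, 20.4 and 24.8 CPM in wild type and 19.8, 19.1 and 20.4 CPM in the mutants, with a 95% interval of the log2 fold change from -0.42 to 0.04. Here the groups met at 20.4 CPM. Flat does not mean unchanged for the other 3, whose intervals leave 0 out. The interval was 0.10 to 0.60 for fbxa-107 and 0.09 to 0.71 for fbxa-64, and -0.75 to -0.08 for fbxa-60. Of all 37 flat genes, 7 had an interval above 0, 3 had one below 0 and 27 had one that includes 0, and 24 had a fitted value above 0. fbxa-107 passed the test with library size alone and with DESeq2, fbxa-60 passed it with DESeq2 and without wild-type replicate 2, and fbxa-64 passed it without that replicate. The flat genes had a median of 1105 counts over the 6 libraries and the unresolved genes one of 186, with a range of 51 to 10120. Among the 47 unresolved genes, fitted values ran from -1.50 to 1.61, and 37 were above 0.

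The largest fall was that of fbxa-42 on chromosome III (2259906 to 2261453, minus strand). It went from 5.28, 2.48 and 4.45 CPM in wild type to 0.435, 0.257 and 0.121 CPM in ddi-1(icb156), a log2 fold change of -3.91 (SE 0.49) with an edgeR adjusted p of 0.00458. Wild-type replicate 2 was the lowest of its group, though far above the mutants. fbxa-96 on X went from 1.33, 0.952 and 1.02 CPM to 0.201, 0.283 and 0.243 CPM (log2 fold change -2.16, SE 0.29). fbxa-211 on V went from 3.98, 3.43 and 3.56 CPM to 1.88, 1.60 and 1.28 CPM (log2 fold change -1.21, SE 0.20). These 3 falls were called in all 6 leave-one-out fits.

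The calls of the 3 other falls depended on single libraries, while the fitted values stayed below 0. Over the alternative settings they ran from -2.77 to -1.88 for fbxa-218, -1.49 to -1.10 for fbxa-201 and -1.46 to -0.95 for fbxa-125. fbxa-218, annotated with a protein of only 38 residues, had 38, 24 and 40 counts against 4, 4 and 10 (log2 fold change -2.17, SE 0.46). Without ddi-1(icb156) replicate 1 or 2 it was not called, with fitted values of -2.02 and -1.88 (edgeR adjusted p = 0.0957 and 0.0935). fbxa-201 went from 3.48, 1.90 and 3.59 CPM to 1.04, 1.16 and 1.58 CPM (-1.25, SE 0.32). fbxa-125 went from 5.32, 2.66 and 3.94 CPM to 1.34, 1.55 and 2.22 CPM (-1.22, SE 0.32). In both genes wild-type replicate 2 was the lowest of its group, as it was for the summed yolk genes. Neither was called without wild-type replicate 1 or 3 or without ddi-1(icb156) replicate 1 or 2, with edgeR adjusted p from 0.106 to 0.127 for fbxa-201 and from 0.110 to 0.135 for fbxa-125. In those fits the values were -1.20 to -1.10 for fbxa-201 and -1.23 to -0.95 for fbxa-125. With the replicate block, fbxa-125 was not called either (log2 fold change -1.19, edgeR adjusted p = 0.0477).

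The number of lowered genes moved most with the choice of test and libraries. It was 12 with DESeq2 and 15 without wild-type replicate 2, and both sets held all 6 genes named here. It was 3 without ddi-1(icb156) replicate 1 or replicate 2, and 3 when only members that passed the filter in both groups were counted. Among the genes not tested, those with the most counts were fbxa-78, fbxa-147 and fbxa-43. fbxa-147 had 50, 9 and 43 counts in wild type and 5, 2 and 0 counts in the mutants, and again wild-type replicate 2 was the low one of its group. fbxa-78, whose exons overlap those of fbxa-208, was given 90 counts in replicate 2 of each group and 0 in the 4 other libraries, and its counts were not whole. fbxa-43 had 6, 8 and 10 counts against 4, 9 and 5, with overlapping groups.

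The raised genes were unevenly spread over the chromosomes. Chromosome III held 21 raised and 2 lowered genes among 50 tested, while 7.41% of its other genes were called higher. Chromosome V, with 53 tested members, held 10 raised and 2 lowered ones, and 14.2% of its other genes were called higher. Chromosome II held 6 raised genes among 10 tested, against 10.3% of its other genes, and is also the chromosome of the icbIs4 transgene. Chromosome I held 1 raised gene (fbxa-216) among 5 tested, and IV and X held none among 3 and 7 tested. Of the other genes of I, IV and X, 6.8%, 7.89% and 11.2% were called higher, so these few members do not show a lack of rises there.

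Most members lie in groups. When genes no more than 50 kb apart were joined, 15 clusters of at least 3 members held 108 of the 170 genes, among them 79 tested, 29 raised and 2 lowered ones. Raised genes were found in 9 of the clusters. Over all tested members, in clusters or not, 29.7% were raised, and 9.96% of all genes tested were called higher. With a limit of 20 kb, 14 clusters held 98 members, 28 raised and 2 lowered.

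The largest cluster, of 27 genes on chromosome III (1239048 to 1384252), held 12 raised genes among 23 tested and no lowered one. Its raised genes, in order along the chromosome, were fbxa-61, fbxa-63, fbxa-77, fbxa-29, fbxa-30, fbxa-37, fbxa-50, fbxa-36, fbxa-35, fbxa-79, fbxa-19 and fbxa-14. The summed level of all 27 genes, tested or not, was 53.6, 54.1 and 55.4 CPM in wild type and 98.7, 93.6 and 90.5 CPM in the mutants. The largest rises in it were those of fbxa-36 (log2 fold change 1.86), fbxa-30 (1.73) and fbxa-35 (1.67), which lie among other raised genes in its middle. Toward its far end, fbxa-26 and fbxa-27 were flat, with fitted values of -0.20 and -0.28. fbxa-75 lies in this cluster too.

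The second cluster by size, of 15 genes on chromosome III (2219708 to 2314035), was the only one whose members were called in both directions. It held 5 raised genes (fbxa-12, fbxa-38, fbxa-47, fbxa-73 and fbxa-71) and fbxa-42, the member that fell most. fbxa-42 lies between the untested fbxa-43 and the unresolved fbxa-9, and fbxa-71, which rose by 2.78 on the log2 scale, is the second gene before it. The summed level of the cluster was 11.1, 10.7 and 10.7 CPM in wild type and 16.3, 13.7 and 13.2 CPM in the mutants.

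Smaller clusters held other named genes. On chromosome II, the 6 genes from 1609252 to 1624672 hold fbxa-166 and fbxa-158, and their summed level was 1.45, 1.73 and 1.5 CPM in wild type and 9.04, 9.55 and 10.4 CPM in the mutants. In a group of 10 on chromosome III (933422 to 963833), fbxa-67, fbxa-11 and fbxa-54 were raised and fbxa-60 next to fbxa-67 was flat. The 2 genes of other kinds tested within that group, T12B5.15 and T12B5.14, were lower (log2 fold changes -5.18 and -4.73). On chromosome V, fbxa-188 and fbxa-189 lie side by side in a group of 4 (17331640 to 17352870) that also spans skr-5, a gene of an SCF adaptor that rose as well. fbxa-136 and fbxa-174 share another group of 7 on V, whose summed level was 1.91, 1.33 and 1.48 CPM in wild type and 5.06, 5.48 and 5.80 CPM in the mutants. By contrast, the group of 4 on V that holds fbxa-107 and fbxa-211 was at 35.9, 29.4 and 37.5 CPM in wild type and 33.6, 32.7 and 32.9 CPM in the mutants, with overlapping groups.

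**Figure D4:**
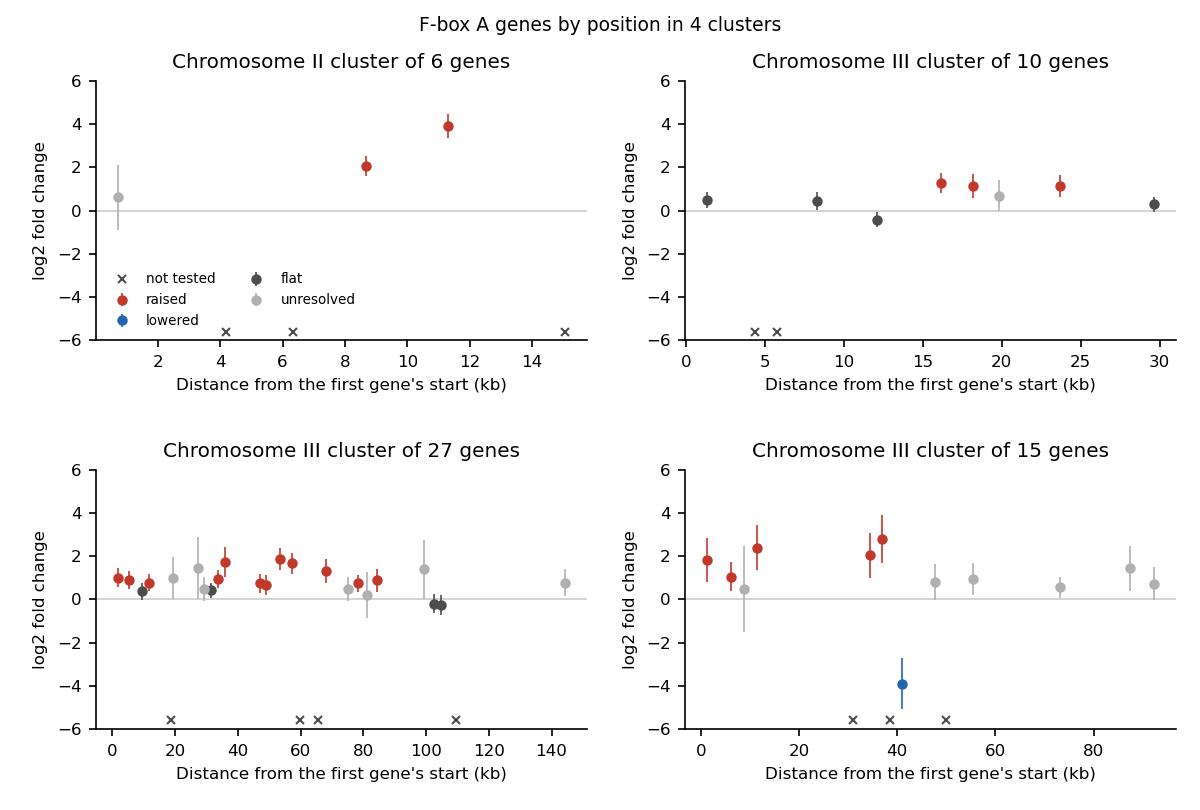
Log2 fold change with its 95% interval (vertical axis) of the F-box A genes in 4 clusters, by distance of the gene's middle from the start of the first gene (horizontal axis, kb), coloured by class, with crosses at the bottom for genes not tested. In the cluster of 27 genes 12 are raised and none is lowered, and in that of 15 genes fbxa-42 lies at -3.91, after the 5 raised genes.

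Of 68 pairs of members with no other gene of the files between them, both were tested in 41. Both were raised in 11 of these pairs, 1 of the 2 in 14 and neither in 16, and no pair joined a raised and a lowered gene. Across the 41 pairs the log2 fold changes of neighbours correlated with Pearson's r = 0.47 and Spearman's rho = 0.47. This is given as a description only, since a gene with neighbours on both sides is in both pairs, and the genes come from the same 6 libraries and are related in sequence.

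Raised genes were also set against gene lists that were published from other samples: genes induced by oomycete recognition (ORR), by bortezomib, a proteasome inhibitor (BTZ), in the intracellular pathogen response (IPR), and a list tied to skn-1a. The ORR list holds 12 F-box A genes, of which 9 were tested and 7 raised (fbxa-35, fbxa-36, fbxa-47, fbxa-50, fbxa-67, fbxa-71 and fbxa-174). The BTZ list holds 33, of which 26 were tested, 15 raised and 1, fbxa-42, lowered. The skn-1a list holds 8, with 5 tested and 4 raised, and the IPR list holds 5, with only fbxa-182 and fbxa-158 tested and both raised. The lists overlap, and 38 members are on at least 1 of them. Of the 30 tested members on any list 18 were raised, and of the 98 tested members on none 20 were raised. Their median log2 fold changes were 1.23 and 0.47. Of all genes tested 9.96% were called higher, and of all F-box A genes tested 29.7%. The share raised among the other genes of these lists was not compared. fbxa-44, fbxa-136 and fbxa-188 are among the raised genes on no list.

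Partners of F-box proteins were looked at as a list of 35 genes for cullins, RING proteins, SKR adaptors, neddylation enzymes and COP9 signalosome subunits. Of 26 tested, 5 (19.2%) were called higher and 1 (3.85%) lower, where 9.96% and 13.4% of all genes tested were. Their median log2 fold change was 0.04. The 5 higher ones are the subunits known from the CUL-6 ligase. The cullin gene cul-6 went from 6.06, 5.96 and 6.61 CPM to 12.1, 13.03 and 13.5 CPM (log2 fold change 1.05, SE 0.12, edgeR adjusted p = 0.00281). The RING gene rcs-1 went from 35.6, 39.6 and 32.2 CPM to 71.5, 77.9 and 69.6 CPM (1.03, SE 0.09). In both genes every mutant sample was above every wild-type one.

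Among the adaptors, skr-3 went from 48.7, 54.4 and 47.3 CPM to 88.1, 85.8 and 89.0 CPM, a log2 fold change of 0.81 (SE 0.07). skr-4 went from 17.6, 17.2 and 15.5 CPM to 36.9, 36.6 and 41.2 CPM (1.19, SE 0.09). skr-5, whose exons overlap those of lsy-27, went from 1.31, 1.20 and 1.42 CPM to 4.56, 6.13 and 6.22 CPM (2.10, SE 0.20). skr-1, the main Skp1 of the worm, was not called, at 181.7, 204 and 183 CPM against 195, 204 and 210 CPM (0.10, SE 0.07). The widely used cullin gene cul-1 was lower, at 134, 133 and 137 CPM against 96.8, 97.8 and 117 CPM (-0.38, SE 0.09, edgeR adjusted p = 0.0284). That call was lost in fits without wild-type replicate 3 (edgeR adjusted p = 0.0921), without ddi-1(icb156) replicate 1 (0.101) or without ddi-1(icb156) replicate 2 (0.101).

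Other F-box genes were set beside all genes tested, of which 9.96% were called higher and 13.4% lower. A further 10 F-box genes, such as lin-23 and sel-10, are not named fbxa, fbxb or fbxc. Among them are fog-2 and ftr-1, which lie within an F-box A cluster on chromosome V. None of the 10 was called higher and sel-10 was called lower (log2 fold change -0.33). In the F-box B family 8 of 104 genes had enough counts to be tested and none was called. Sets of 10 and 8 genes are too small to tell the absence of rises from the share of all genes. In the F-box C family 22 of 48 genes were tested and 4 (18.2%) were called higher, with a median log2 fold change of 0.40. The 22 genes have 19 symbols, since fbxc-4 and fbxc-5 name copies with equal counts, none of them called. Without wild-type replicate 2 the F-box C count was 11 and the F-box B count 1. The differences between the families were not tested.

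**Figure D5:**
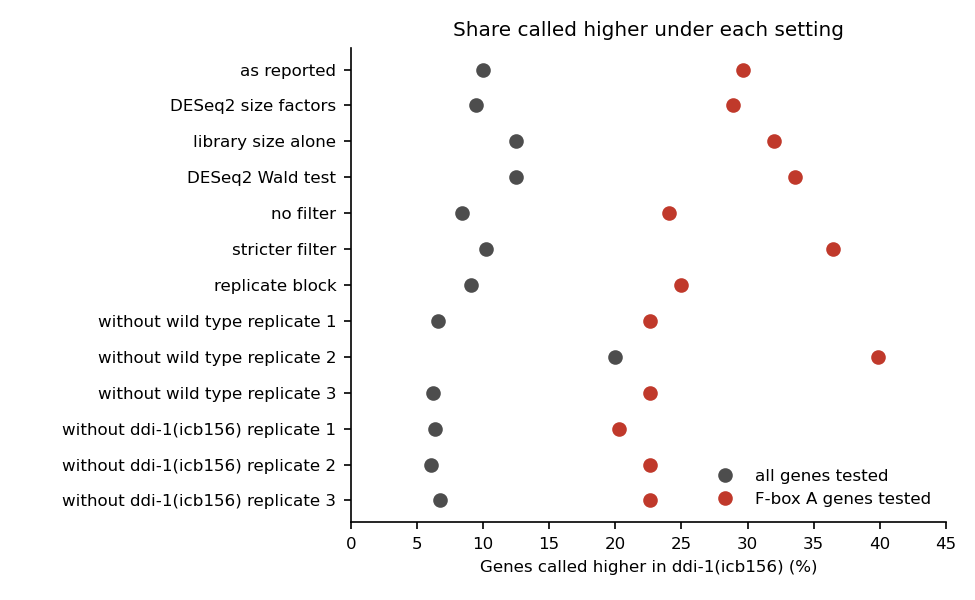
Share of genes called higher in ddi-1(icb156) (horizontal axis, %) under each processing setting (vertical axis), for the F-box A genes tested (red) and all genes tested (grey). The F-box A share runs from 20.3% to 39.8% and lies above the share of all genes under each of the 13 settings.

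The F-box A share of rises was compared with that of all genes under each setting. It was lowest, at 20.3%, without ddi-1(icb156) replicate 1, where 6.33% of all genes were called higher. It was highest, at 39.8%, without wild-type replicate 2, where 20.0% of all genes were. With libraries scaled by their size alone, 53.2% of all calls were higher, in place of 42.6%, and the F-box A genes counted 41 higher and 6 lower.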

How the data were processed

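RNA of whole L4 animals was isolated with TRIzol, and BGI did the sequencing. The authors used kallisto with the WormBase WS283 transcriptome for quantification and Sleuth for testing (versions not given in the sources used here). Per transcript, the deposited values are estimated counts, with transcript length and effective length, and are neither normalized nor pooled. Of 37058 transcripts, 30413 were joined to genes of WBcel235 (Ensembl release 115) by ID and 6633 by sequence name, and 12 were kept under their own names.

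For each gene the estimated counts of its transcripts were added and rounded. At default settings, filterByExpr in edgeR 4.0.16 (R 4.3.3) kept 15409 genes, those with about 0.26 CPM in at least 3 libraries. Libraries were scaled by TMM (factors 0.969 to 1.07). The groups were compared by the robust quasi-likelihood test, two-sided, without covariates (biological coefficient of variation 0.202, 4 residual degrees of freedom). With 28962104 to 47142002 counts per library, genes of few counts are imprecise, and intervals cover only the spread between these samples. Deviations from the group means correlated weakly between samples of the same replicate number (r = 0.11, 0.31 and 0.19 for numbers 1 to 3). Samples with different numbers gave r from -0.29 to 0.11, so the r of number 1 was no higher than that of an unmatched pair. As each same-number r was over 0.1, a fit with the number as a block was compared. Other alternatives were DESeq2 1.42.0, other scalings and filters, and leaving out each library. Whether the libraries keep the strand is not given, so overlapping genes are uncertain.

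The members and lists were chosen with earlier results of these data known. Genes named are fbxa-182, fbxa-158 and fbxa-75, the 12 largest rises and up to 8 largest falls, the 4 most abundant flat genes, the 3 untested genes with most counts, members called against their cluster, up to 6 called SCF genes, and ddi-1. Others (fbxa-67, fbxa-72, skr-1, sel-10, and genes given by cluster or list) were named after their values were seen. Pairs of highest protein identity and promoter motifs were not analysed here. Of the F-box A genes, 52 RefSeq pseudogenes were not analysed here. The planned set without near-identical transcripts was replaced by the set with whole counts.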

Additional observations from a re-analysis of the deposited data

How the results depend on the processing

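The count of raised F-box A genes was 38 and ran from 26 to 51 when each library was left out in turn, and no other setting moved it by more than 1.5 times. With the replicate block it was 32, all among the 38, and the lowered genes were 8. The count of 6 lowered genes was 12 with the DESeq2 Wald test, 3 among members that passed the filter in both groups (a setting added after seeing the data, as was that of whole counts) and 3 to 15 when each library was left out. The median log2 fold change of 0.56 was 0.64 with library size alone, 0.48 with the stricter filter and 0.47 among members that passed the filter in both groups. With a limit of 0.5 in place of 1, 5 genes in place of 37 were flat. Over all genes, leaving out a library gave 929 to 3084 higher and 775 to 3383 lower calls, the highest counts without wild-type replicate 2. SCF genes called lower were 2 with DESeq2 size factors and with no filter, 3 with the DESeq2 Wald test and 0 to 3 with a library left out, and SCF genes called higher reached 8. F-box C genes called lower were 2 with the DESeq2 Wald test, 1 with no filter, 1 with the replicate block and 0 to 4 with a library left out. F-box C genes called higher were 1 to 11, and F-box B genes called higher were 0 to 1, with a library left out. The causes were not tested. Of the alternatives for named genes, 314 kept the call and direction, 21 lost the call, 5 gained it and none reversed. Among the genes named by rule, the block changed the calls of fbxa-144 and fbxa-125 and of no other, and 5 more raised genes lost the call. The alternative that leaves out members by sequence identity was not run. The 42 untested members, 8 of them without counts, had a median of 12.5 counts over the 6 libraries. The 47 unresolved ones had a median of 186 and a range of 51 to 10120.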
